A study of Mus musculus with 3 samples.

Results

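The genes described here are the interleukins, their receptors and the proteins that bind or block them, as far as their name on the array begins with Il and a number. This gave 81 genes with 146 probes, of 37324 genes with 56602 probes on the array. The rule reads the name and no measured value, though it was set with earlier results of these data known. Gene expression was measured in 3 cell fractions of epididymal fat from male C57/BL mice of 20 weeks, with 1 array for each fraction. Fat was digested with collagenase and spun at 9 g for 1 s, and the lower phase was kept as stromal vascular cells (SVC). The cells that floated were spun at 226 g for 3 min, which left mature adipocytes (MA) on top and small proliferative adipocytes (SPA) in the sediment. SVC and SPA were grown in DMEM to 90% confluence before RNA was taken, whereas no culture is described for MA, so the fraction and the culture cannot be told apart in any comparison with MA. The sample titles also give SVC and SPA a shared date and MA another, and that date and the fraction cannot be told apart either. Nothing in the records says how many mice gave each RNA, no difference has a replicate check, and no test was run.

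Interleukins are secreted proteins by which immune and tissue cells signal to each other, and they fall into families that share receptor chains and a route into the cell. The IL-1 family acts through receptors that switch on NF-kB, with decoy receptors and an antagonist that hold it back, while the IL-6, IL-10, IL-12 and common gamma chain families act through receptors that bind Janus kinases and STAT factors. In fat, resident macrophages, lymphocytes, mast cells, stromal cells and adipocytes are all known to make or answer to some of them, and IL-6 and IL-1 are known to act on the insulin response and lipolysis of adipocytes.

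Of 59305 spots that are not controls, 61.3% passed the background flag in MA, 61.4% in SPA and 58.6% in SVC, and 0 were saturated. The 75th percentile of the processed signal lay at 366 in MA, 439 in SPA and 430 in SVC. Every level below is the log2 of the signal of a probe relative to that percentile of its own array, so a level of 0 is the percentile itself. A gene was read at its brightest probe, and levels are set against each other only within a probe. The dimmest probe well above background stood at a log2 level of -4.95 in SVC, -5.14 in SPA and -5.15 in MA, and a fold against an array where a probe is not well above background is a lower bound set by that floor. Of 300 probes that were spotted 10 times on each array, the median SD of the log2 signal was 0.04 in SVC, 0.04 in SPA and 0.05 in MA, which covers the spotting within an array only. In RNA of mixed cells, fewer cells of a type and less RNA per cell cannot be told apart.

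Well above background were 53 of the 81 genes (65.4%) in MA, 49 (60.5%) in SPA and 44 (54.3%) in SVC. Over all genes the shares were 60.3%, 59.9% and 57.0%, so the share of interleukin genes was close to theirs in SPA, a little lower in SVC and a little higher in MA. On at least 1 array 57 genes were well above background, and 43 were so on all 3. In MA alone were 7 of them, which were Il10, Il12b, Il17rb, Il1a, Il1b, Il22ra2 and Il2rb. In SPA alone were 4, which were Il19, Il1f9, Il20 and Il7. Il21 was above background in SVC and MA, and Il22 and Il31ra were so in SPA and MA. On no array were 24 genes above it. These held the T cell cytokines Il2, Il3, Il4, Il5, Il9, Il17a and Il17f, the further IL-17 family cytokines Il17b, Il17c and Il25, the IL-12 and IL-23 subunits Il12a and Il23a, the IL-1 family ligands Il1f5, Il1f6 and Il1f10, and Il31. The rest were the receptor genes Il5ra, Il9r, Il18rap, Il20ra, Il23r, Il1rapl1 and Il1rapl2 and the antisense transcript Il1bos. How many of all genes were above background on 1, several or no arrays was not counted. The numbers of these patterns thus describe the interleukin genes only and cannot be set against the whole array.

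Most interleukin genes read on both arrays differed little between the cultured fractions and more between either of them and MA. Between SPA and SVC 40 of 43 genes lay within 2-fold, with a median log2 ratio of 0.02, beside 19547 of 20822 and a median of 0.05 over all genes. Between MA and SPA 28 of 45 lay within 2-fold, with a median log2 ratio of 0.17, beside 14173 of 20777 and a median of -0.08 over all genes. Between MA and SVC 26 of 44 lay within 2-fold, with a median log2 ratio of 0.29, beside 13409 of 20174 and a median of -0.07 over all genes. MA over SVC uses the same arrays as the other comparisons and adds no separate evidence.

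A gene was called from a fold, or a bound of it, of at least 5, with the background flag passed on the brighter array. Of 50 interleukin genes that could be read, 1 was called higher in SPA than in SVC, Il1f9, beside 0.320% of all genes, and 0 were called lower, beside 0.351%. Of 57, 9 were called higher in MA than in SPA, beside 5.47% of all genes, and these were Il6, Il1a, Il1b, Il1r2, Il10, Il2rb, Il17re, Il34 and Il4i1. Called lower in MA than in SPA were 4, beside 3.97% of all genes, and these were Il11, Il1rn, Il3ra and Il1f9. The interleukin shares were thus 15.8% higher and 7.02% lower, each above the share over all genes, on counts of only 9 and 4. Of 53, 5 were called higher in MA than in SVC, beside 5.72%, which were Il6, Il1b, Il10, Il2rb and Il34, and 2 were called lower, beside 3.96%, which were Il11 and Il1rn. These are shares of 9.43% higher, above that over all genes, and 3.77% lower, near that over all genes. Of the 9 genes higher in MA than in SPA, 4 rest on a bound, Il10, Il1a, Il1b and Il2rb. Nearest to the threshold in that comparison was Il3ra, at 5.09-fold lower in MA, and nearest outside it were Il17rb, at least 4.98-fold higher, and Il6ra, 4.84-fold higher. With the normexp background correction, which adds 50 to every signal, 3 of the 9 kept a 5-fold ratio, Il6, Il1b and Il34, and 2 of the 4, Il11 and Il1rn.

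**Figure D1:**
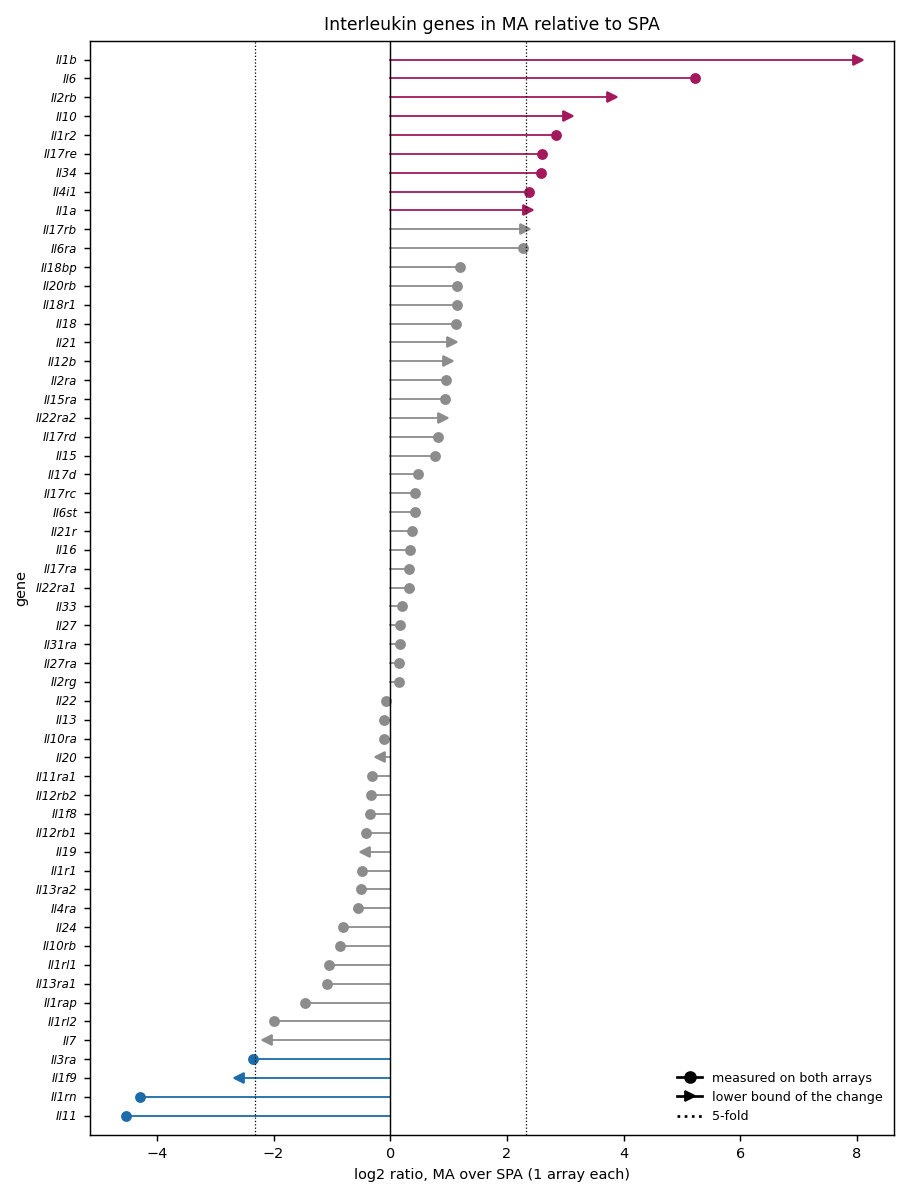
Log2 ratio of MA over SPA for the 57 interleukin genes well above background on at least 1 of both arrays, read at the brightest probe of each gene. Points were measured on both arrays, arrowheads are lower bounds of the change, dotted lines mark 5-fold, and Il1b lies farthest to the right and Il11 farthest to the left.

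Il6 encodes IL-6, a cytokine that acts through a receptor chain shared by its family and drives acute-phase genes. Its probe at chr5:30346367-30346426 (mm9) stood at log2 levels of 0.97 in SVC, -0.85 in SPA and 4.37 in MA. IL-6 RNA was thus highest in MA and lowest in SPA, 37.4-fold higher in MA than in SPA, 10.6-fold higher in MA than in SVC and 3.54-fold lower in SPA than in SVC. The other Il6 probe stood at log2 levels of 0.04, -1.74 and 3.56, and its log2 ratios of 5.30 for MA over SPA and -1.78 for SPA over SVC lay within 0.1 of those of the brighter probe.

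Il11, the gene of IL-11, another ligand of the same signalling chain that is known for its place in fibrosis, went the opposite way. Its only probe, at chr7:4724847-4724906 (mm9), stood at log2 levels of 2.0 in SVC, 1.70 in SPA and -2.82 in MA. Il11 was high in both cultured fractions and low in MA, 23.0-fold lower than in SPA and 28.4-fold lower than in SVC. On the arrays of SVC and MA the software marked the background around this spot as outlying, and the gene has no value when such spots are left out.

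Of 4 receptor chains of the IL-6 family 3 were read on all arrays, and none of the 4 was called in any comparison. Il6ra, the chain that binds IL-6, stood at log2 levels of 1.48 in SVC, 1.31 in SPA and 3.58 in MA, which is 4.84-fold higher in MA than in SPA and 4.30-fold higher than in SVC. Its dimmer probe gave a log2 ratio of 1.41 for that comparison against 2.27 at the brighter. Il6st, the shared signalling chain gp130, stood at 2.80 in SVC, 2.36 in SPA and 2.78 in MA on the log2 scale and stayed within 1.35-fold. Il11ra1, the receptor chain for IL-11, stood at log2 levels of 4.52, 4.61 and 4.30, within 1.24-fold, and has near-identical copies in the mouse genome that a probe may not separate. Il31ra, a chain of the IL-31 receptor, was dim, at log2 levels of -4.05 in SPA and -3.89 in MA and not well above background in SVC, at least 2.09-fold higher in MA than in SVC, and of its 5 probes 3 were above background on no array.

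The stretch before the start of Il6, Il1b, Il1a and Il11 is printed, for the genes of IL-6, IL-1 beta, IL-1 alpha and IL-11. All were called between MA and SPA. Il1f9, a further IL-1 family ligand called there, is not printed and its matches are given below. The letters are the 250 bases before the start site in RefSeq (GRCm38.p6), read 5′ to 3′ on the strand of the gene. They were searched on both strands for GGNNTTTCC, the letters of an NF-kB site, for TGANTCA, those of an AP-1 site, and for TTGCNNAA, those of a C/EBP site, and matches are in capitals. The Il6 stretch held all 3, at -43 to -35, -249 to -243 and -128 to -121 bases from the start. Il11 held the AP-1 letters at -98 to -92 of the start site shown and none at its other start site, Il1a held them at -12 to -6, and Il1b held none of the motifs in this window. Il6 lies at chr5:30012864-30013113 on the plus strand, and Il11 at chr7:4778142-4778391, Il1a at chr2:129309973-129310222 and Il1b at chr2:129371140-129371389 on the minus strand.
Il6: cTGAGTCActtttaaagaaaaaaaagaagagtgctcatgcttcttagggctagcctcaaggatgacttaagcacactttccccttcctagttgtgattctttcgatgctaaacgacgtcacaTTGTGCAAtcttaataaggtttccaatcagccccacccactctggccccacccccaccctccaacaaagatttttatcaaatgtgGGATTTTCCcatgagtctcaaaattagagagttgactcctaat
Il11: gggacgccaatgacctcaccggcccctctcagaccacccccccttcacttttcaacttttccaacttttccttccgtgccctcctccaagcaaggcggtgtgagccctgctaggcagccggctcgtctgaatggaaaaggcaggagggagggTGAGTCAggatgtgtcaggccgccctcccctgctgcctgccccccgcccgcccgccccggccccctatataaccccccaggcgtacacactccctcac
Il1a: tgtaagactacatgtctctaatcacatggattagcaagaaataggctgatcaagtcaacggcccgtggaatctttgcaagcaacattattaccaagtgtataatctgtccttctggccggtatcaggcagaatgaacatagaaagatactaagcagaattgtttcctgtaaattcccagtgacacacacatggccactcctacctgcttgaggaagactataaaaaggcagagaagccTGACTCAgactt
Il1b: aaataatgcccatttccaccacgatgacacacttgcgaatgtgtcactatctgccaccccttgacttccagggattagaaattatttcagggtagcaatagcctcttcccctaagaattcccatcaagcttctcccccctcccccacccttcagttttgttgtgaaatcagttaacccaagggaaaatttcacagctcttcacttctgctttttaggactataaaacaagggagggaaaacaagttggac

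Over the 32817 promoters of the same length in that table, 4.93% held the NF-kB letters, 6.75% the AP-1 letters and 9.57% the C/EBP letters. Of the 13 interleukin genes called in any comparison 10 had an entry, with 13 start sites. Of the others, Il1rn held the AP-1 letters before one start site and the NF-kB letters GGTTTTTCC before another, and Il3ra held the C/EBP letters. Il17re, Il1f9, Il1r2 and Il4i1 held none of the letters in these windows. A match describes the sequence and was not tied to any ratio.

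Il1b encodes IL-1 beta, a ligand made as a precursor that inflammatory caspases cut. Its probe at chr2:129190347-129190406 (mm9) was not well above background in SVC or SPA and stood at a log2 level of 2.88 in MA, with a processed signal of 2691 there against 5.30 in SVC and 2.90 in SPA. The gene was thus read in MA alone, at least 259-fold higher than in SPA and at least 228-fold higher than in SVC. Both other Il1b probes were also above background in MA alone, at log2 levels of 0.84 and -3.91.

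Il1a, the gene of IL-1 alpha, which is active without being cut, was read in MA alone too, at a log2 level of -2.78. The fold was at least 5.11 over SPA and at least 4.50 over SVC from its only probe, at chr2:129125994-129126053 (mm9). Il18 encodes an IL-1 family ligand that macrophages make, and its log2 levels were -0.14 in SVC, -0.62 in SPA and 0.50 in MA, 2.18-fold higher in MA than in SPA. Il33, an alarm signal of stromal cells that acts on lymphocytes and mast cells, stood at log2 levels of -1.49, -1.03 and -0.82 and stayed within 1.59-fold. The local background of this Il33 spot was outlying in SVC.

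The antagonist of IL-1 went the opposite way to Il1a and Il1b. Il1rn, which blocks the IL-1 receptor without signalling, stood at log2 levels of 3.13 in SVC, 3.96 in SPA and -0.34 in MA at chr2:24206125-24206184 (mm9). It was 19.6-fold lower in MA than in SPA, 11.0-fold lower than in SVC, and 1.78-fold higher in SPA than in SVC. Its other probe had log2 levels of -0.84, -0.09 and -3.80 and the same order of the fractions. Within the same RNA, MA thus had higher levels of both IL-1 ligand genes and a lower level of their antagonist than the cultured fractions.

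Among the IL-36 ligands Il1f9 was above background in SPA alone, at a log2 level of -2.55 and a processed signal of 74.9, at chr2:24048444-24048503 (mm9). This is at least 5.28-fold higher than in SVC and at least 6.05-fold higher than in MA, by its only probe. On that array, 9.75% of the spots around it that were dim in SVC were above background in SPA, beside a median of 8.19% around all 146 interleukin spots. The call against SVC was lost with quantile normalization and both were lost with the normexp correction. Il1f8, another IL-36 ligand, lay close to the floor, at log2 levels of -4.68, -4.58 and -4.93, with a dimmer probe above background on no array.

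**Figure D2:**
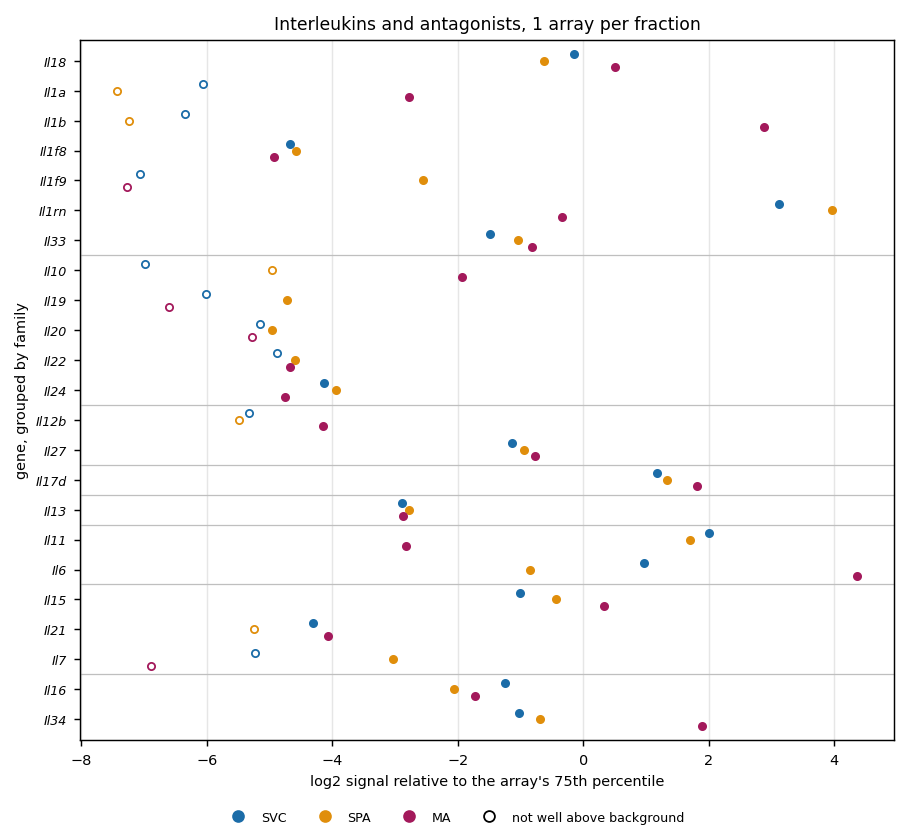
Log2 level of the 23 interleukin and antagonist genes above background on at least 1 array, relative to the 75th percentile of its array, with 1 point per fraction. Open points are not well above background, lines part the families, and Il1b, Il6 and Il34 are farthest right in MA while Il11 and Il1rn lie left of both other fractions in MA.

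Receptors of the IL-1 family were read in every fraction for 7 of 10 genes. Il1r1, the signalling receptor for IL-1, stood at log2 levels of 1.51 in SVC, 0.78 in SPA and 0.30 in MA and was 2.31-fold lower in MA than in SVC. Il1r2, a decoy that binds IL-1 without signalling, stood at -1.89, -2.72 and 0.12 on the log2 scale at chr1:40182006-40182066 (mm9), 7.20-fold higher in MA than in SPA and 4.02-fold higher than in SVC. The decoy was thus the highest and the signalling receptor the lowest in MA. The second Il1r2 probe was above background on no array.

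Il1rap, the chain that Il1r1 needs to signal, stood at log2 levels of 0.51, -0.10 and -1.57, which is 2.77-fold lower in MA than in SPA and 4.25-fold lower than in SVC. Il1rl2, the IL-36 receptor, stood at 1.11, 0.82 and -1.17 on the log2 scale, 3.98-fold lower in MA than in SPA and 4.88-fold lower than in SVC. Both signalling chains were therefore lowest in MA. Il18r1, a chain of the IL-18 receptor, was lowest in SPA, at log2 levels of -2.23, -3.80 and -2.66, 2.96-fold lower in SPA than in SVC and 2.20-fold higher in MA than in SPA, from a spot whose local background was outlying in SVC and SPA. Il18bp, which soaks up IL-18, stood at -2.32 in SVC, -1.82 in SPA and -0.61 in MA on the log2 scale, 2.30-fold higher in MA than in SPA and 3.26-fold higher than in SVC.

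The probes of Il1rl1, the receptor for IL-33 known as ST2, did not give the same ratio. The probe at chr1:40504769-40504828 (mm9), named on the array for transcript variant 2, a short form known as the soluble decoy, stood at -0.67 in SVC and -0.67 in SPA on the log2 scale and was not well above background in MA. Its log2 ratio for MA over SPA was at most -4.48. The bright probe for variant 1, the membrane receptor, at chr1:40522187-40522246 (mm9), stood at log2 levels of -0.82, -0.52 and -1.56, with a log2 ratio of -1.04. A further probe for variant 1 at chr1:40520014-40520073 (mm9) was above background in SPA alone, at a log2 level of -4.91. The ratio of MA over SPA was thus lower at the variant 2 probe than at the bright variant 1 probe. The 30 bases printed are the opening stretch of each 60-base probe, 5′ to 3′ as in the array file, to show which sequence each ratio was read with, with no capitals because no motif was marked.
Il1rl1, variant 2 probe: ctctgtaacaggatcttttgtctagatttc
Il1rl1, bright variant 1 probe: gccattgactccttgtgtgttttcttcatg
Il1rl1, dim variant 1 probe: ccttacccaaattgccattacagtcgagca

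Il1rap also has probes for more than 1 transcript. Its brightest probe, for variant 1, gave a log2 ratio of -1.47 for MA over SPA, and the probe for variant 2 stood at log2 levels of -2.23 in SVC and -2.82 in SPA and was not well above background in MA, with a ratio of at most -2.33. The probe for variant 4 was above background on no array.

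**Figure D3:**
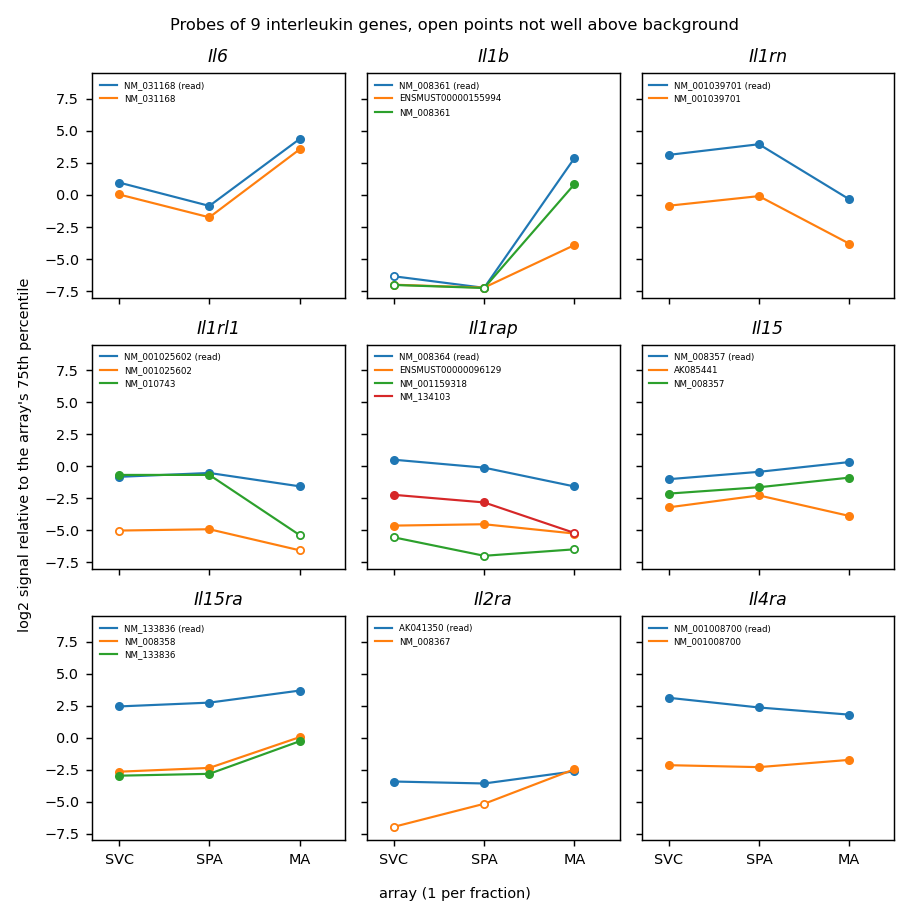
Log2 level of every probe of 9 interleukin genes on the 3 arrays, relative to the 75th percentile of its array, where lines join 1 probe and are named by the transcript on the array. Open points are not well above background, the probes of Il6 and of Il1rn run side by side, and those of Il1rl1, Il15 and Il4ra part in MA.

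Genes with several probes above background on both arrays gave ratios that differed between probes by a median of 0.25 on the log2 scale for SPA over SVC (20 genes), 0.46 for MA over SPA (18 genes) and 0.38 for MA over SVC (17 genes). The widest spread was that of Il15, from -1.60 to 0.76 for MA over SPA. At 2 genes, Il15 and Il4ra, both named below, the probes lay on both sides of 0 by more than 0.5.

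In the IL-10 family Il10, the gene of a cytokine that quiets macrophages, was read in MA alone, at a log2 level of -1.93 and chr1:132920943-132921002 (mm9). It was at least 8.23-fold higher than in SPA and at least 8.15-fold higher than in SVC, by its only probe. Of the spots around it that were dim in SPA, 13.9% were above background in MA. Il24 stood near the floor in all fractions, at log2 levels of -4.13, -3.94 and -4.75. The epithelial cytokines Il19, at a log2 level of -4.72, and Il20, at -4.97, were above background in SPA alone, with bounds of at most 1.35-fold against the other fractions. Il22, a lymphocyte cytokine, had log2 levels of -4.59 in SPA and -4.67 in MA. Apart from Il10, every cytokine of this family was thus at or near the limit of what the arrays could read.

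Their receptors were brighter. Il10ra, the chain that binds IL-10, stood at log2 levels of -0.60 in SVC, 0.01 in SPA and -0.09 in MA, and Il10rb, the chain it shares with other receptors of the family, stood at 3.29, 3.51 and 2.64, and both stayed within 1.82-fold. Il20rb, a chain for IL-19, IL-20 and IL-24, stood at -2.93, -2.83 and -1.69 on the log2 scale, 2.20-fold higher in MA than in SPA and 2.36-fold higher than in SVC. Il22ra1, the IL-22 receptor chain, had log2 levels of -1.20, -0.85 and -0.53. Il22ra2, a secreted binding protein for IL-22, was read in MA alone, at a log2 level of -4.23.

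IL-12 family subunits were few. Il27, a subunit of IL-27, stood at log2 levels of -1.13 in SVC, -0.94 in SPA and -0.77 in MA, and Il12b, the chain shared by IL-12 and IL-23, was read in MA alone, at -4.15. The receptor chains held steady, with Il27ra at log2 levels of -1.53, -1.57 and -1.42, Il12rb1 at -3.30, -3.28 and -3.69, and Il12rb2 at -3.42, -3.47 and -3.80. Every one of these receptor chains stayed within 1.33-fold.

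Of 6 IL-17 family cytokines only Il17d, which stromal tissues are known to express, was above background, at log2 levels of 1.17 in SVC, 1.34 in SPA and 1.81 in MA. All 5 receptors of the family were read. Il17ra, the common chain, stood at -1.31, -1.27 and -0.94 on the log2 scale, and Il17rc, its partner for IL-17A, at 2.75, 2.88 and 3.30. Il17rd had log2 levels of -0.26, -0.29 and 0.53 and stayed within 1.77-fold. Il17re, the chain for IL-17C, stood at -2.43, -3.58 and -0.97 on the log2 scale at chr6:113420147-113420206 (mm9), 6.08-fold higher in MA than in SPA, 2.74-fold higher in MA than in SVC and 2.22-fold lower in SPA than in SVC. Its other probe gave the same order, at log2 levels of -2.88, -4.34 and -1.18. Il17rb, the chain for IL-25, was read in MA alone at a log2 level of -2.82, at least 4.98-fold higher than in SPA and at least 4.39-fold higher than in SVC, and of its 2 other probes 1 was above background, also in MA alone, at -2.76.

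Cytokines of the common gamma chain family support lymphocytes. Il15, which NK cells need, stood at log2 levels of -1.01 in SVC, -0.43 in SPA and 0.33 in MA and was 2.53-fold higher in MA than in SVC. One dimmer probe of Il15 agreed in direction, at log2 levels of -2.13, -1.63 and -0.88, and another, matched to a full-length cDNA, stood at -3.20, -2.27 and -3.87, lowest in MA. Il7, a lymphocyte growth factor of stromal cells, was above background in SPA alone, at a log2 level of -3.03, at least 3.79-fold higher than in SVC and at least 4.34-fold higher than in MA, with both other probes above background on no array. Around that spot 11.5% of the spots dim in SVC were above background in SPA. Il21 lay near the floor, at log2 levels of -4.31 in SVC and -4.07 in MA, at least 2.09-fold higher in MA than in SPA.

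Receptor chains of this family are known from lymphocytes but not from them alone, and Il2rg, Il15ra and Il4ra were bright in all 3 fractions. Il2rb, a chain for IL-2 and IL-15, was read in MA alone, at a log2 level of -1.33 and chr15:78309771-78309830 (mm9). It was at least 14.0-fold higher than in SPA and at least 12.3-fold higher than in SVC. The other Il2rb probe was also above background in MA alone, at -2.30. Around the spot read, 20.1% of the spots dim in SPA were above background in MA, the highest share of the 146 interleukin spots. Around the spot of the other probe it was 7.59%. Il2rg, the common gamma chain, stood at log2 levels of 1.70, 2.01 and 2.16 and stayed within 1.37-fold. Il2rb was thus read in MA alone while the chain it pairs with was bright in all 3 fractions.

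Il15ra, which presents IL-15, stood at log2 levels of 2.43 in SVC, 2.73 in SPA and 3.67 in MA, 2.36-fold higher in MA than in SVC. Both dimmer probes gave more, with log2 ratios of 2.40 and 2.54 for MA over SPA against 0.94 at the brightest. Il2ra, the chain that raises the affinity for IL-2, stood at -3.42, -3.58 and -2.63 on the log2 scale. Its other probe was above background in MA alone, at -2.47, and was at least 5-fold higher there than in SPA and in SVC. Whether Il2ra is called thus depends on the probe. Il21r had log2 levels of -1.02, -1.05 and -0.67, and its dimmer probe was lowest in SPA, at -2.44, -3.97 and -2.30. Il4ra, which carries the signals of IL-4 and IL-13, stood at log2 levels of 3.11 in SVC, 2.35 in SPA and 1.79 in MA, 2.49-fold lower in MA than in SVC. Its dimmer probe was highest in MA, at -2.15, -2.30 and -1.74, so the direction for Il4ra depends on the probe.

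In the group of IL-3, IL-5 and IL-13 only the cytokine Il13, a type 2 signal, was above background, at log2 levels of -2.89 in SVC, -2.77 in SPA and -2.87 in MA, within 1.09-fold. Il3ra, the chain that binds IL-3, stood at 2.44, 3.20 and 0.86 on the log2 scale at chr14:15187898-15187957 (mm9), 5.09-fold lower in MA than in SPA and 3.01-fold lower than in SVC. Its other probe had log2 levels of -0.78, -0.14 and -2.21 and a ratio of -2.07, which is under 5-fold. Il13ra1, which pairs with Il4ra, stood at log2 levels of 1.28, 1.04 and -0.04, 2.11-fold lower in MA than in SPA and 2.49-fold lower than in SVC. Il13ra2, a decoy for IL-13, stood at -1.54, -1.84 and -2.34 on the log2 scale. The 3 receptors read in this group were thus lowest in MA.

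Il34 encodes a ligand of the macrophage receptor Csf1r. Its probe at chr8:113265835-113265894 (mm9) stood at log2 levels of -1.03 in SVC, -0.69 in SPA and 1.89 in MA, 6.02-fold higher in MA than in SPA and 7.59-fold higher than in SVC. The other Il34 probe had log2 levels of -3.65, -3.54 and -0.90 and nearly the same ratios. Il34 and Il6 were the genes called higher in MA against both cultured fractions that were measured on all arrays. Csf1, the other ligand of that receptor, went the opposite way, at log2 levels of 6.24, 6.20 and 2.40, 14.0-fold lower in MA than in SPA. The local background of the Csf1 spot was outlying in SPA. Csf1r itself stood at 5.11, 5.37 and 4.97 on the log2 scale.

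Il16, a lymphocyte attractant, stood at log2 levels of -1.25, -2.06 and -1.72 and stayed within 1.76-fold. Il4i1, which is named for its induction by IL-4 and encodes an amino acid oxidase, stood at -2.92, -3.04 and -0.67 on the log2 scale at chr7:52096115-52096174 (mm9), 5.18-fold higher in MA than in SPA and 4.77-fold higher than in SVC.

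**Figure D4:**
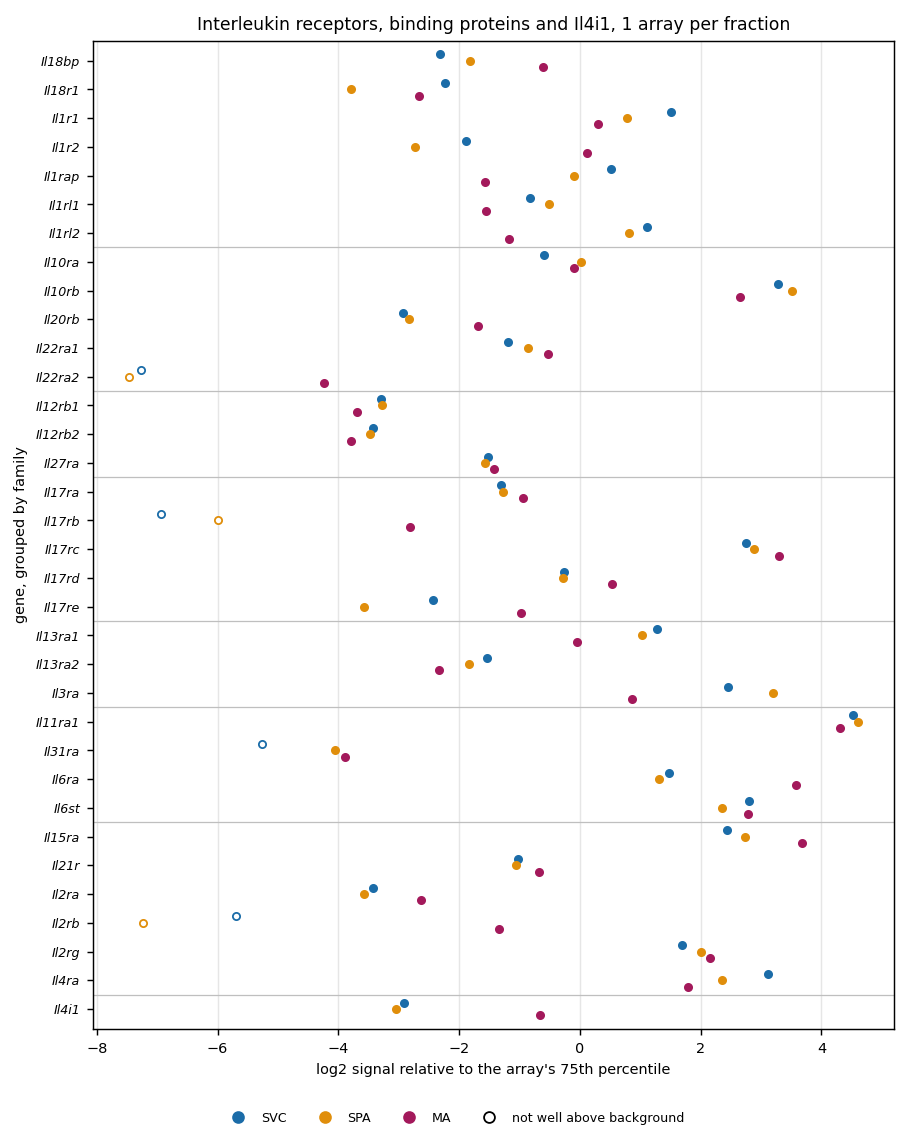
Log2 level of the 34 interleukin receptor, binding protein and related genes above background on at least 1 array, relative to the 75th percentile of its array, with 1 point per fraction. Open points are not well above background, lines part the families, and most genes have their 3 points close together while Il2rb, Il17rb and Il22ra2 are filled in MA alone.

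Between the cultured fractions the ratios were small. At a threshold of 2-fold, 2 genes were higher in SPA than in SVC, Il1f9 and Il7, beside 3.89% of all genes, and 3 were lower, Il6, Il17re and Il18r1, beside 3.24%. The same threshold gave 16 genes higher in MA than in SPA, beside 15.7%, and 9 lower, beside 18.0%, and 16 higher in MA than in SVC, beside 17.2%, and 8 lower, beside 18.0%. As a share of the genes read, 28.1% of the interleukin genes were thus at least 2-fold higher in MA than in SPA and 15.8% at least 2-fold lower.

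Genes without an Il name that belong to these pathways were read from lists of partners. Over all genes, 5.47% were called higher in MA than in SPA and 3.97% lower, and 0.320% higher in SPA than in SVC and 0.351% lower. The counts of each partner, response and marker list below stand beside these shares. A list of few genes with 1 or 2 called is too small to be told from them. Of 9 further cytokines and subunits 1 was called higher in MA than in SPA, Ctf1, an IL-6 family ligand, at 7.59-fold, and 2 were called lower. Those were Csf1 and Clcf1, another ligand of the IL-6 family, which was 6.94-fold lower. Of 9 receptors 1 was called higher, Sigirr, a receptor that restrains IL-1 signalling, at 7.54-fold, and 0 were called lower. The median log2 ratio of the receptors was -0.40.

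Of 13 genes of IL-1 receptor signalling 2 were called higher in MA than in SPA, Nfkbia, an NF-kB inhibitor, at 7.89-fold, and Nfkbiz, a nuclear protein known to help NF-kB induce some of its targets, at 19.3-fold, and the median log2 ratio was 0.10. The adaptor Myd88 stood at log2 levels of 1.87, 1.74 and 2.81, and the kinase Irak4 at -1.51, -1.49 and -1.54. Of 7 genes that mature IL-1 0 were called higher and 2 lower. These were Pycard, the inflammasome adaptor, at 5.02-fold, and the sensor Nlrc4, at least 5.91-fold, while Casp1, the caspase that cuts IL-1 beta, stood at log2 levels of 1.78, 2.80 and 1.16. The caspase gene Casp4 was 4.04-fold and the sensor gene Nlrp3 1.48-fold higher in MA than in SPA. The median log2 ratio of these maturation genes was -1.36, and their summed level was 17.3 in SVC, 21.9 in SPA and 19.3 in MA.

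Of 17 genes of JAK and STAT signalling 3 were called higher in MA than in SPA, all of them feedback inhibitors, Socs1 at 5.47-fold, Socs3 at 26.7-fold and Cish at 39.9-fold, and 0 were called lower. At the Socs3 spot the software marked the local background as outlying in SVC and MA. Stat3, the main factor of IL-6 signals, stood at log2 levels of 4.51 in SVC, 4.37 in SPA and 5.31 in MA. Of 11 genes known to answer to IL-6, 6 were called higher in MA than in SPA and 1 lower, with a median log2 ratio of 2.54. Higher were Socs3, Hp at 13.3-fold, Lrg1 at 54.6-fold, Steap4 at 80.2-fold, Cebpd at 5.80-fold and Junb at 10.1-fold, and lower was Saa3 at 14.3-fold. Socs3 is also counted in the JAK and STAT list and Junb in the immediate-early list. The Hp spot had outlying local background in MA. Between SPA and SVC 1 of the 11 was called higher, Lrg1 at 5.30-fold, and 0 lower. Their median log2 ratio there was -0.25, and Il6 was 3.54-fold lower in SPA. Hp, Lrg1 and Steap4 are also known as adipocyte genes, and the acute-phase gene Lcn2 stood at log2 levels of 2.80, 2.40 and 0.26.

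Other genes moved between the fractions beside the interleukins. Of 15 immediate-early genes, which are known to rise within minutes of a stimulus, 11 were called higher in MA than in SPA, and the sum of their linear levels, as multiples of the percentile, was 872 in MA, 95.2 in SVC and 86.5 in SPA. Fosb stood at log2 levels of -2.60, -2.14 and 6.43 and Fos at 1.37, 1.00 and 6.24. Of 6 adipocyte markers 5 were called higher in MA than in SPA and 4 in SPA than in SVC, with Adipoq not well above background in SVC and at log2 levels of 1.56 in SPA and 8.44 in MA. All 6 adipocyte markers were above background in SPA and MA and 4 in SVC. Each was highest in MA, which matched the label of MA, and SPA lay between SVC and MA for each. At the probes read Fabp4 was 7.22-fold and Lep 1.19-fold higher in SPA than in SVC, where the study listed both above 5-fold. All 6 macrophage markers below were also above background in SPA, so the RNA of SPA did not hold adipocyte markers alone.

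Immune markers did not rise or fall together. Of 6 macrophage markers 1 was called higher in MA than in SPA, C1qa at 11.3-fold, and 1 lower, Cd68 at 8.58-fold, and their summed level was 118 in SVC, 153 in SPA and 68.1 in MA. Mrc1 was 1.73-fold higher in MA, and Adgre1 was 3.90-fold, Csf1r 1.32-fold and Itgam 1.31-fold lower, with a median log2 ratio of -0.40. Of 7 markers of T and NK lymphocytes 2 were called higher in MA, Cd3d at 6.16-fold and Cd2 at least 20.5-fold, and the summed levels were 6.17, 6.71 and 8.30. At the Cd2 spot the local background was outlying in SVC and SPA. Cd3g was above background in MA alone and Cd8a in SPA alone, whereas Cd3e stood at log2 levels of 1.76, 1.87 and 1.79. Of 3 B lymphocyte markers 1 was called higher in MA, Cd79b at least 17.1-fold, with summed levels of 0.227, 0.149 and 0.602 and Cd79a above background on no array.

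Of 6 mast cell markers 3 were called higher in MA, Kit at 8.57-fold, Mcpt4 at least 9.30-fold and Cma1 at least 10.3-fold, with summed levels of 0.348, 0.378 and 1.76, and Cpa3 was also read in MA alone. Of 5 neutrophil markers S100a9 was called higher in MA, at least 40.5-fold, and not well above background in SPA, whereas its partner S100a8 was 2.41-fold lower in MA than in SPA and Ly6g 1.79-fold lower. The summed levels of the neutrophil markers were 60.5, 68.1 and 79.4 and their median log2 ratio was -0.37. Most of each sum came from Csf3r, which stood at log2 levels of 5.87, 5.94 and 6.23. All 5 endothelial markers were called higher in MA than in SPA, with summed levels of 2.09, 2.34 and 27.4. Of 5 mesothelial markers 4 were called higher in MA than in SPA, and all 5 lower in SPA than in SVC, with summed levels of 20.2, 3.37 and 17.5. Of 6 stromal fibroblast markers 3 were called higher in MA, Col3a1, Dpt and Lum, with summed levels of 236.9, 107.1 and 368.4. Dcn was 3.90-fold and Col1a1 1.12-fold higher in MA than in SPA. Pdgfra was 4.14-fold lower there, and it was called lower in MA than in SVC, at 5.76-fold. Summed levels of every marker list but the macrophage one were higher in MA than in SPA, as were those of the immediate-early genes. This is the direction of Il6, Il1a, Il1b, Il10 and Il2rb, and the macrophage sum went the other way. The adipocyte sum was 8.66 in SVC, 58.3 in SPA and 1956 in MA. Each sum adds different probes and follows the brightest of them, so members can go the other way, as Pdgfra and C1qa did. Of the lymphocyte markers only Cd3d, Cd2 and Cd79b were called in that comparison, all higher in MA, whereas Cd3e differed by 1.06-fold and Ms4a1 was 1.95-fold lower in MA. Their part in the interleukin ratios was not tested.

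**Figure D5:**
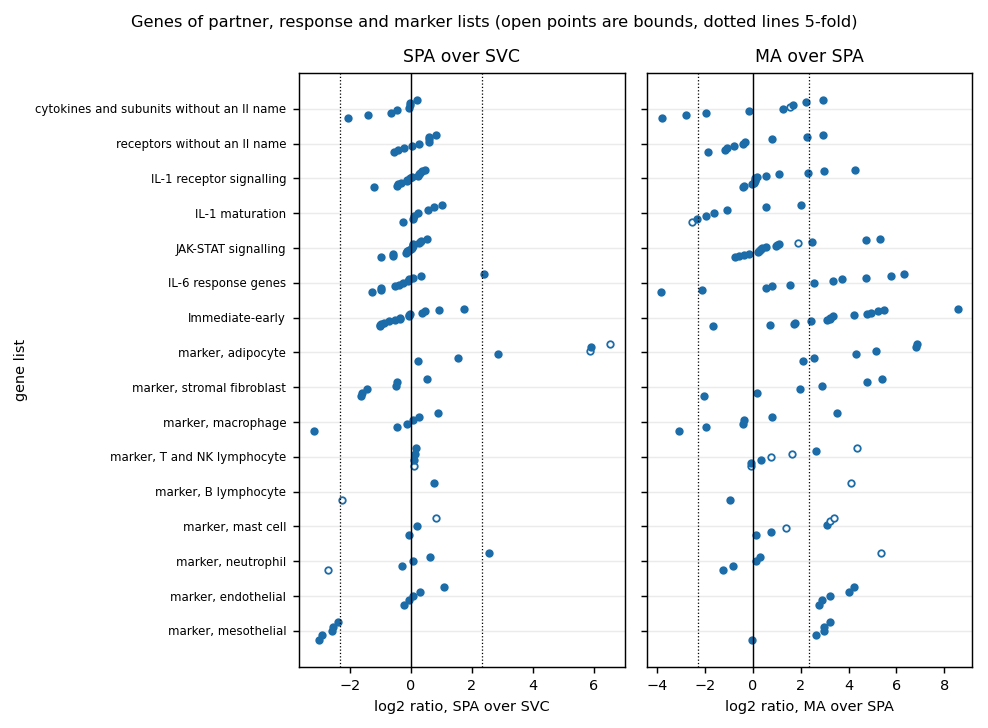
Log2 ratios of SPA over SVC and of MA over SPA for the genes of each partner, response and marker list, with 1 point per gene. Open points are bounds, dotted lines mark 5-fold, the mesothelial markers lie left of the line for SPA over SVC, and the immediate-early and endothelial genes lie mostly right of it for MA over SPA.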

How the data were processed

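RNA of SVC, SPA and MA was labelled with Cy3 from 50 ng and hybridised to 1 Agilent SurePrint G3 mouse array each. The authors deposited the intensity of each spot that Agilent Feature Extraction 10.7.3.1 gave, as a processed signal with background subtracted and trends across the array taken out, with the raw signal, the local background and the flags for background and saturation (the latter as other values, 0 or 1). They also deposited a table whose values are a ratio of that signal to 1 constant per array, to within a relative 1.37e-06, with scale and centring unstated. Its columns have medians of 0.0934 in SVC, 0.0969 in SPA and 0.0981 in MA. GeneSpring GX and a 5-fold rule are named in the paper's methods and text, and the normalization is not given in the sources used here.

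Control spots and outlier spots were left out, each array was scaled to its 75th percentile on the log2 scale, spots of a probe were averaged, and the probe with the highest mean over the arrays stood for its gene. Array names were updated by accession through the RefSeq gene table of GRCm38.p6, except that names beginning with Il and a number were kept as on the array. That table held the accessions of 121 of the 146 interleukin probes. Positions follow the mm9 annotation in the array files, and genes with overlapping or antisense partners were not separated. The interleukin genes, the 16 lists of partner, marker and immediate-early genes and the thresholds were chosen with earlier results of these data known, and Il6 is among the genes that the study listed from these arrays. Every gene above background was named with its levels, ratios were given from 2-fold, and genes past 5-fold were described with their other probes. Results for 1 gene whose name begins with Il, 1 further cytokine or subunit and 1 B lymphocyte marker are not reported here, and the counts of interleukin genes and of the lists leave them out. Without that partner the median ratio of the further cytokines and subunits from SPA to MA changed sign, so it is not given. Groups hold 1 array, so nothing was tested and there are no p-values, and precision is limited by the number of arrays. Alternatives were 12 settings, and 1 more was added after seeing the data. The calling of ratios was checked on simulated data. The normexp correction used limma 3.58.1 in R 4.3.3, and the rest used numpy 2.4.6, pandas 2.3.3 and matplotlib 3.10.9 in Python 3.11.15.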

Additional observations from a re-analysis of the deposited data

How the results depend on the processing

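No paired analysis was possible because each group holds 1 array. Of 199 recomputed ratios of single called genes, 0 turned their direction and 15 fell under 5-fold. Of these, 11 did so with the normexp correction (offset 50), which lowered the number higher in SPA than in SVC from 1 to 0, higher in MA than in SPA from 9 to 3, lower in MA than in SPA from 4 to 2 and higher in MA than in SVC from 5 to 3. Il3ra also fell under it with quantile normalization, with the percentile over probes above background on all arrays and with the median of the probes. Quantile normalization gave 0 genes higher in SPA than in SVC. With both arrays required to be above background, 0 were higher in SPA than in SVC, 5 higher in MA than in SPA and 2 higher in MA than in SVC, since bounds then have no value. With no filter on dim probes 1 was lower in SPA than in SVC, Il18rap, which is above background on no array, and 8 were higher in MA than in SVC. Reading the probe with the largest ratio gave 4 lower in MA than in SVC and 6 lower than in SPA, with Il1rap and Il1rl1 added to both. It gave 7 higher in MA than in SVC, with Il15ra and Il2ra added, and 12 higher than in SPA, with Il17rb added as well. The median of the probes added Il15ra to the genes higher in MA in both comparisons. It also added Il17rb to those higher in MA than in SPA and Il1rl1 to those lower in MA than in SVC. Without spots of outlying local background 1 was lower in MA than in SVC, as Il11 then has no value. No filter together with any probe, a setting chosen after seeing the data, gave 1 lower in SPA than in SVC, 8 lower in MA than in SPA, and 11 higher and 5 lower in MA than in SVC. A threshold of 2-fold gave 2 higher and 3 lower in SPA than in SVC, 16 and 9 in MA against SPA, and 16 and 8 in MA against SVC. The number of genes above background moved to 61, 62 and 71 in SVC, SPA and MA with a weaker flag for a signal above background. The cause of these changes was not tested beyond what each setting leaves out or adds. No scaling moved the median of all genes by 0.1 on the log2 scale. Genes near the floor have bounds in place of ratios, which limits what can be read of the dim cytokines.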
